A study of Drosophila melanogaster with 2 samples.

Results

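Chromosome 4 carried 380 of the 30000 regions in a pooled list of peaks and background for the CG15812 protein, tagged with GFP, in Drosophila melanogaster embryos. All regions of that list on chromosome 4 were taken, at any rank, and 63 of them were among the 2886 peaks that the authors kept as reproducible. Of the 80 protein-coding genes annotated on the chromosome, 53 had such a peak within 1 kb of a transcription start site (TSS), which is 66.2% of them (95% Wilson interval 55.4 to 75.7%). On the arms 2L, 2R, 3L, 3R and X, 2172 of 13865 protein-coding genes had one, which is 15.7% (15.1 to 16.3%). Over all 6 arms together, 16.0% of the protein-coding genes had such a peak.

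The protein was mapped by chromatin immunoprecipitation followed by sequencing (ChIP-seq), in which DNA bound by a protein is recovered with an antibody and sequenced. The single group holds 2 biological replicates of whole embryos of mixed sex, collected over 0 to 24 h, from 1 transgenic line that stably expresses CG15812 with GFP at its C terminus. There is no untagged or wild-type group, and what drives the transgene is not given in the labels. Per the labels, the chromatin was sonicated to fragments of 200 to 800 bp. The labels call the protein pfk, while the annotation gives the symbol Pfk to another gene, so the name CG15812 is used here. One free-text label calls both samples input, against their assay title and antibody entry, and they were read as immunoprecipitated. Whole embryos hold many cell types, and occupancy in few cells cannot be told apart from weak occupancy in many. Depth is unknown, because the lists hold no read counts.

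Chromosome 4, also called the dot chromosome or Muller element F, is the smallest autosome of the fly. Its arm is largely packaged as heterochromatin, with the protein HP1a along it and many remnants of transposable elements, and yet its genes are expressed. Many of those genes are bound by POF, a protein that targets this chromosome. The irreproducible discovery rate (IDR) compares the ranks of regions between replicates and keeps those that rank alike, and a region that passed it is called an IDR peak below. Here the 2886 IDR peaks were also the 2886 pooled regions of highest signal, and some ranked far apart in the replicates, such as a summit of pan at ranks 1661 and 9355. The signal of a region is the authors' own score of its strength, in units that the sources used here do not define, and the summit is the base where that signal is highest.

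The sequences around 7 IDR summits are shown, to set 4 strong promoter peaks beside an intronic peak over 1 kb from any TSS and beside summits with short motifs named below. Each is the plus strand of dm6 over 30 bp to each side of the summit, 61 bases in all. Capitals mark GGAACG, read on either strand, and the palindrome TATCGATA.
anne promoter, chr4:132099-132159: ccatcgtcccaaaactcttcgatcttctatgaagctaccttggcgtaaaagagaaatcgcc
4E-T promoter, chr4:958424-958484: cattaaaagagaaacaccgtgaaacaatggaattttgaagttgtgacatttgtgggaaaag
CaMKI promoter, chr4:445443-445503: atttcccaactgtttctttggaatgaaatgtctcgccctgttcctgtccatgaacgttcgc
Eph promoter, chr4:610573-610633: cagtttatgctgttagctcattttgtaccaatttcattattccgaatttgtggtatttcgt
zfh2 intron, chr4:505236-505296: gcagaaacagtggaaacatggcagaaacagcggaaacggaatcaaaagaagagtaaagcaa
Tdg and Pur-alpha, chr4:557316-557376: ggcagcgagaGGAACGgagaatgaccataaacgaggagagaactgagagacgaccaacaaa
MED26 promoter, chr4:787625-787685: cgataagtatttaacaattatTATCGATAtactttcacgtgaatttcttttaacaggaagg
GGAACG is the 6-base sequence considered below because it was frequent at the strongest peaks of the other arms, and TATCGATA is the DNA replication-related element bound by the transcription factor Dref. The first 4 windows, those of the strong promoter peaks, hold neither motif.

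Chromosome 4 is 1348131 bp long in dm6. It held 46.7 IDR peaks per Mb, against 21.3 per Mb on the other arms, where single arms ranged between 18.3 on 3L and 23.9 on 2L. Taking as many top regions (2886) from each replicate alone gave 45.2 per Mb on chromosome 4 in replicate 1 and 47.5 in replicate 2. This is 46.4 ± 1.57 per Mb on chromosome 4 (SD, n = 2) and 21.3 ± 0.0160 per Mb on the other arms (SD, n = 2). Because each replicate list was cut to 2886 regions, the SD of the other arms is nearly fixed by the cut and measures no replicate spread. The difference between chromosome 4 and the other arms was larger than the spread of the chromosome 4 values between replicates. No test was run, because chromosome 4 is 1 chromosome and its regions are not independent replicates. Both replicate lists and the pooled list rest on 1 shared control alignment.

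Chromosome 4 has fewer protein-coding genes per Mb (59.3) than the other arms (105), and 18.5% of its bases lie within 1 kb of a TSS, against 23.6% on the other arms. Per 100 protein-coding genes it held 78.8 IDR peaks, against 20.4 on the other arms, a ratio of 3.87. The replicates alone gave ratios per gene of 3.74 and 3.93. Annotated transposable elements covered 24.8% of chromosome 4 and 5.74% of the other arms, and 35.2% of its bases were G or C, against 42.2%. The part of base composition, repeats or DNA copy number in these densities was not tested.

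Over all arms, 9.62% of the pooled regions passed IDR. On chromosome 4, 63 of 380 did (16.6%, Wilson interval 13.2 to 20.6%), against 2823 of 29617 on the other arms (9.53%, 9.20 to 9.87%). Regions near a TSS and regions farther away were counted apart. Of 193 chromosome 4 regions with a summit within 1 kb of a TSS, 54 passed (28.0%, 22.1 to 34.7%), against 14.3% of such regions on the other arms. Of the 187 chromosome 4 regions farther away, 9 passed (4.81%, 2.55 to 8.89%), against 5.29% on the other arms.

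The density differed by rank. Among the 300 regions of highest signal, chromosome 4 held 5 in every one of the 3 lists, which is 1.67 times the density of the other arms. At ranks 301 to 1000 replicate 1 listed 24 regions on chromosome 4, replicate 2 listed 25 and the pooled list 25, or 3.49, 3.64 and 3.64 times the density of the other arms. At ranks 1001 to 2000 the ratios were 2.94 for replicate 1, 2.52 for replicate 2 and 2.21 for the pooled list. At ranks 2001 to 2886 the lists differed more, with 3 regions for replicate 1, 9 for replicate 2 and 11 for the pooled list, and ratios of 0.334, 1.01 and 1.24. Below the IDR list, the ratios in the 4 lower rank classes lay between 0.903 and 1.75 over the 3 lists. In all 3 lists the ratio was higher at ranks 301 to 2000 than in any other class.

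**Figure D1:**
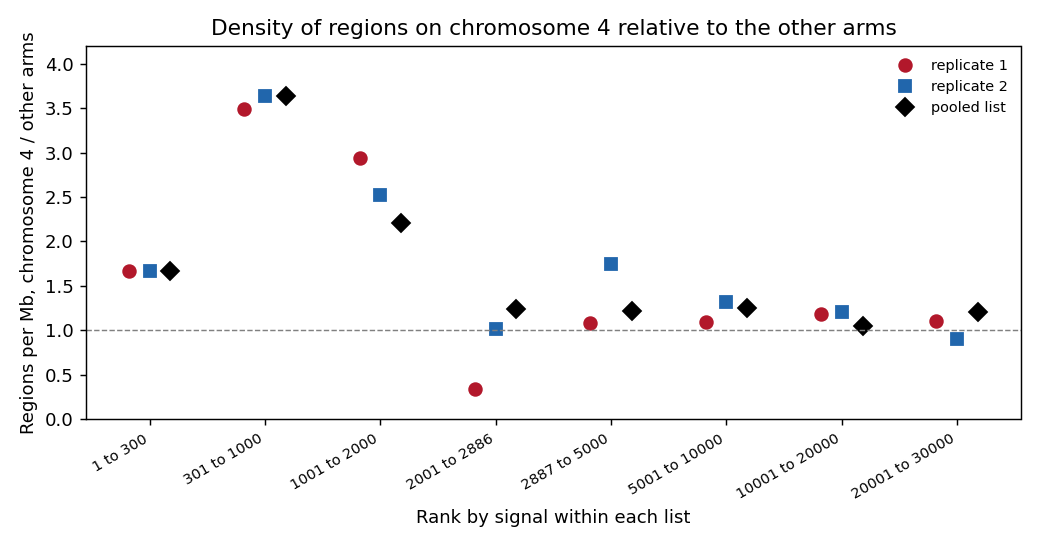
Regions per Mb on chromosome 4 divided by regions per Mb on the other arms (vertical axis), for 8 classes of rank by signal (horizontal axis), for replicate 1, replicate 2 and the pooled list. The ratios at ranks 301 to 1000 were 3.49, 3.64 and 3.64, and the dashed line marks equal density.

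Among the strongest regions of chromosome 4, those of anne, 4E-T, CaMKI and Eph each lay just upstream of a TSS. The highest, chr4:131825-132380, had a pooled signal of 3190 and ranked 94 in the genome, with a signal of 1651 in replicate 1 and 1550 in replicate 2. Its summit lay 91 bp upstream of a TSS of anne (FBgn0052000, chr4:132220-143123). Another, chr4:958091-958775, had a pooled signal of 2835, with 1380 in replicate 1 and 1465 in replicate 2, and lay 62 bp upstream of 4E-T (FBgn0052016, chr4:951542-958392). 4E-T encodes a protein that binds the cap-binding factor eIF4E and represses translation.

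The peak of CaMKI (FBgn0016126, chr4:445504-453947), a calcium and calmodulin dependent kinase, had a signal of 827 in replicate 1 and 908 in replicate 2. That of Eph (FBgn0025936, chr4:610684-622470), the receptor tyrosine kinase for Ephrin, had 745 and 801. The log2 differences between the replicates at these 4 peaks lay between -0.14 and 0.09, so the replicates were close at each of them. The 6th region of the chromosome, at the gene CG31998, had a pooled signal of 875, well below the 1538 of Eph.

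Regions 7 to 20 by signal lay between 367 and 738. They were at the small GTPase Arl4 (738), the ribosomal protein RpS3A (615), the SH2 and SH3 adaptor Crk (537), Gyf (533), the kinase CaMKII (531) and the antisense RNA asRNA:CR44030 (490). Further ones were at pho (463), which encodes a DNA-binding Polycomb group protein, at lgs (449), a coactivator of Wnt signalling, at the membrane adaptor Ank (388), at the microRNA silencing factor gw (373) and between Dyrk3 and Cadps (367). The other 3 lay away from any TSS, at zfh2 and Cadps. The highest signal was 3190 on chromosome 4 and 31565 on the other arms. The median IDR peak had a signal of 252 on chromosome 4 and 200 on the other arms.

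Most IDR summits lay close to a TSS. On chromosome 4, 54 of 63 were within 1 kb of one (85.7%, 75 to 92.3%), against 70.5% on the other arms (68.8 to 72.2%). Within 100 bp the shares were 61.9% on chromosome 4 (49.6 to 72.9%) and 39.6% on the other arms (37.8 to 41.4%). Of the 54 promoter summits, 41 lay upstream of the nearest TSS, at a median signed distance of -53.5 bp, against -42.0 bp on the other arms. Introns over 1 kb from any TSS held 3 of the chromosome 4 summits (4.76%, 1.63 to 13.1%), against 20.4% on the other arms. Among the regions that did not pass IDR, the share within 1 kb was 43.8% on chromosome 4 and 44.5% on the other arms.

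**Figure D2:**
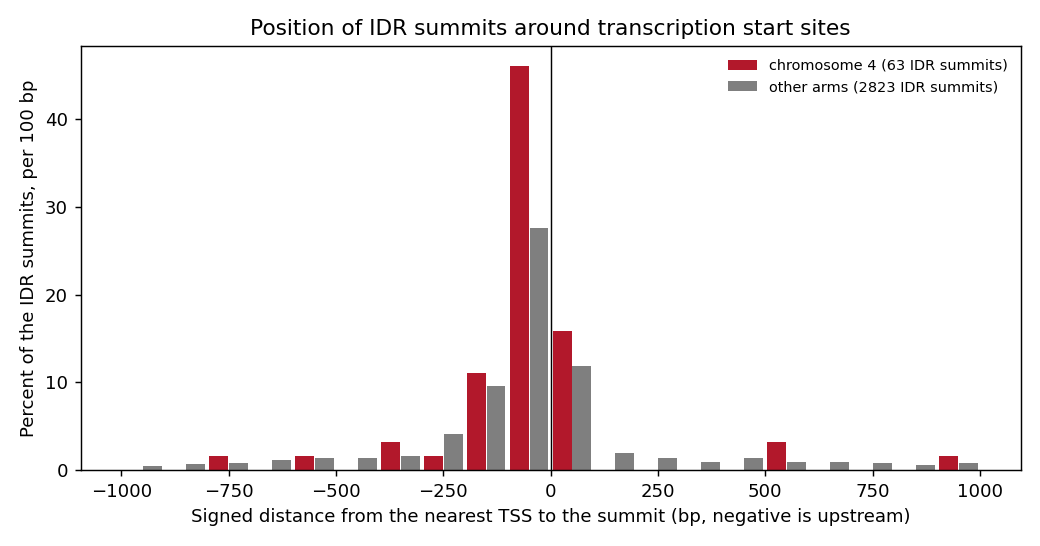
Percent of IDR summits (vertical axis) by signed distance from the nearest TSS in steps of 100 bp (horizontal axis), for chromosome 4 on the left of each step and the other arms on the right. The step just upstream of the TSS held 29 of the 63 chromosome 4 summits (46.0%).

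The 9 IDR summits over 1 kb from a TSS were few but included strong ones. The gene zfh2 (FBgn0004607, chr4:501810-540874), a transcription factor with zinc fingers and homeodomains, had the nearest TSS to 3 IDR summits. One lay between genes, 3922 bp upstream of its TSS, with a pooled signal of 603, and 320 in replicate 1 and 286 in replicate 2. One lay in an intron 3456 bp downstream, with 450 pooled, 254 in replicate 1 and 213 in replicate 2. The summit at the zfh2 promoter, 147 bp upstream, had 209 pooled, 119 in replicate 1 and 93.5 in replicate 2. Among these 3 summits, both distal peaks were thus higher than the promoter peak in both replicates.

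An intron of Cadps, which encodes an activator of calcium-dependent secretion, held a peak of 403 (204 in replicate 1 and 200 in replicate 2). A summit 1242 bp upstream of the non-coding gene lncRNA:CR43437 had 311, with 198 in replicate 1 and 111 in replicate 2. A summit in the annotated 3' UTR of Cals, a calsyntenin, which also lies within sv, had 278. The other 4 had signals between 148 and 207. A pair lay upstream of ci inside the non-coding gene asRNA:CR43957, and the others were in a coding exon of CG33978 and between genes.

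The replicates were compared gene by gene. From the top 2886 regions of each replicate alone, 52 of the 80 genes were bound in replicate 1 and 55 in replicate 2, and 51 were bound in both. Of the 53 genes of the IDR list, 49 were bound in both replicates, CG46466, Slip1 and mav in replicate 2 alone and pan in replicate 1 alone. The share bound was 66.9% ± 2.65 on chromosome 4 (SD, n = 2) and 15.5% ± 0.622 on the other arms (SD, n = 2). Neighbouring genes can share a summit. Giving each summit only to its nearest protein-coding gene left 47 genes, an alternative chosen after the data were seen. At least 2 IDR summits lay at 10 genes, among them pan, CaMKI and gw.

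**Figure D3:**
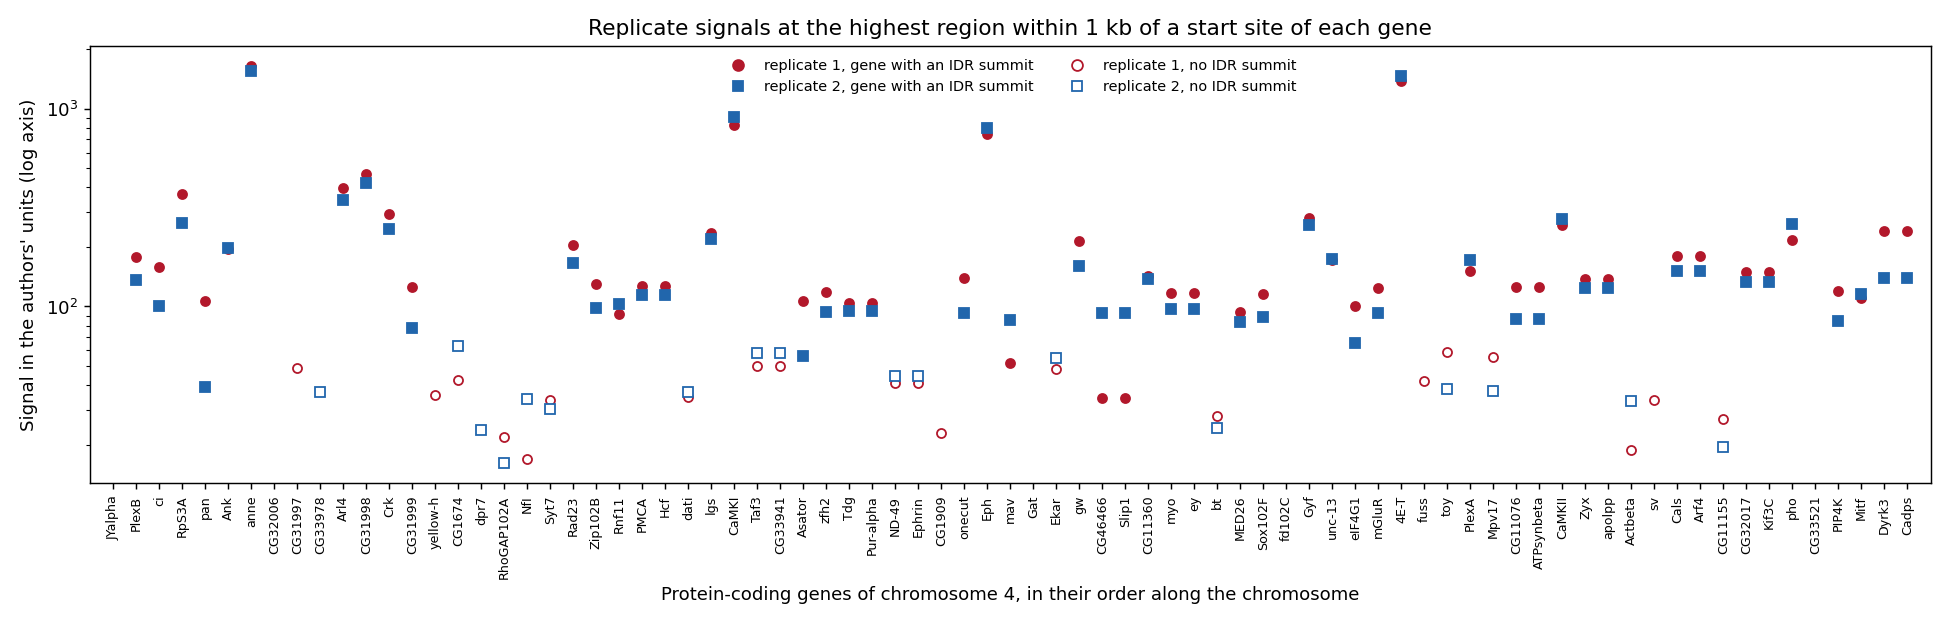
Signal in each replicate (vertical log axis, authors' units) at the highest pooled region within 1 kb of a TSS, for protein-coding genes in their order along chromosome 4 (horizontal axis), with filled points for genes with an IDR summit, open points for genes without one, and no point where no region was matched in that replicate. High points at anne, CaMKI, Eph and 4E-T stand among genes of far lower signal.

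The shares of bound genes in the lists below stand beside the 66.2% of all 80 genes. Transcription factors had 9 bound members of 15 (60.0%, against 66.2% of all genes), at a median pooled signal of 218. The highest were pho, with 217 in replicate 1 and 262 in replicate 2, and lgs, with 234 and 219. At ci, the effector of Hedgehog signalling, the values were 159 in replicate 1 and 101 in replicate 2. The others bound were onecut (pooled signal 232), Mitf (218), Sox102F (212), zfh2 (209), ey (188) and pan (140). The summit at ey, a Pax6 gene of eye development, lay 791 bp upstream of its nearest TSS and 843 bp upstream of the TSS of myo on the other side. The second Pax6 gene, toy, was not bound by an IDR peak and had a region of 95.8, with 58.6 in replicate 1 and 38.4 in replicate 2. The others without an IDR summit were NfI (pooled signal 63.9), dati (78.9) and fd102C, which had no region. The fly Pax2 gene sv had a region of 33.7 and fuss one of 41.9 in replicate 1, with no match in replicate 2.

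The list of neuronal signalling, guidance and synapse genes had 7 of 12 bound (58.3%, against 66.2%), at a median signal of 345. Eph and CaMKII led, CaMKII with 258 in replicate 1 and 277 in replicate 2. Cadps, unc-13, which primes synaptic vesicles, the semaphorin receptors PlexA and PlexB, and the glutamate receptor mGluR followed. Cadps had a pooled signal of 367, unc-13 of 345, PlexA of 314, PlexB of 314 and mGluR of 212. Ephrin, the ligand of Eph, was not bound by an IDR peak, with 41.0 in replicate 1 and 44.3 in replicate 2 at its highest pooled region, which it shares with ND-49. The highest regions of Ekar (97.4), Syt7 (70.6) and dpr7 (33.5) did not pass IDR either, and Gat had none.

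Of the 3 TGF-beta ligands, myo and mav were bound and Actbeta was not. At mav, the values were 51.7 in replicate 1 and 85.5 in replicate 2. Actbeta had a region of 52.5, with 18.8 in replicate 1 and 33.1 in replicate 2, 469 bp downstream of its TSS.

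Of the 9 kinases, adaptors and small GTPase regulators, 8 were bound (88.9%, against 66.2%), at a median signal of 342. Arl4 had 396 in replicate 1 and 344 in replicate 2, Crk had 293 and 247, and Ank had 195 and 197. Dyrk3 had a pooled signal of 367, Arf4 of 316, PIP4K of 210, Asator of 164 and Slip1 of 131. RhoGAP102A was not bound, with a region of 41.9. Of the 10 translation, mitochondria and housekeeping genes, 9 were bound, against 66.2% of all genes, at a median signal of 232. RpS3A had 369 in replicate 1 and 264 in replicate 2, and Gyf had 280 and 258. The others were gw (373), Rad23 (358), Hcf (232), ATPsynbeta (207), Pur-alpha and Tdg (191 at a shared region) and eIF4G1 (154). ND-49, a subunit of respiratory complex I, was not bound by an IDR peak, and its highest pooled region had 84.9. A stronger summit near ND-49 and Ephrin was listed by each replicate alone, at position 570858 with a signal of 124 in replicate 1 (rank 1290) and at 570866 with 138 in replicate 2 (rank 953). The pooled list has no summit within 100 bp of it, and its nearest, at 571054, had 45.1. Of 53 chromosome 4 summits in the top 2886 of both replicates, it was the single one without a pooled summit within 100 bp, against 5 of 1948 on the other arms.

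Of the 31 genes in no list, 18 were bound (58.1%, against 66.2%), at a median signal of 256. Beside anne, 4E-T, CaMKI and CG31998 they included Cals (316), CG32017 and Kif3C (278), CG11360 (277), Zyx and apolpp (235), PMCA (232), Zip102B (226), CG11076 (207), Rnf11 (201), CG31999 (197), MED26 (187) and CG46466 (131). The values of Cals, PMCA, CG11076 and CG46466 are of regions shared, in that order, with Arf4, Hcf, ATPsynbeta and Slip1 of the lists above. The lists are small, so these shares are counts and no list was tested against another.

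Of the 27 genes without an IDR summit, 22 had a weaker region within 1 kb, so 75 of 80 had some pooled region (93.8%), against 63.0% on the other arms. The 5 with none were JYalpha, CG32006, Gat, fd102C and CG33521. Bound genes had a median length of 10904 bp, against 7544 bp for the genes not bound. They also had more annotated TSSs, a median of 2 against 1, and any TSS of a gene could make it bound. The giant muscle gene bt, 52075 bp long, was not bound, and its highest region had 27.9 in replicate 1 and 24.2 in replicate 2.

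Along the chromosome, pooled summits ran between positions 43008 and 1267264, and IDR summits between 43827 and 1234943. The widest interval between neighbouring IDR summits was 90757 bp, between positions 696898 and 787655, and it holds ey and bt. Per 100 kb, IDR counts lay between 0 in the last, shorter stretch and 8. Each replicate alone put 1 of its highest 2886 regions in the stretch between 700001 and 800000, where the IDR list also had 1. Neighbouring IDR summits lay a median of 11833 bp apart on chromosome 4 and 13776 bp on the other arms.

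Across the 62 IDR peaks matched in both replicates, signals were alike. The pooled list and the IDR step both used these replicates, so agreement is partly fixed by the selection. The Pearson r of log2 signal was 0.906 and the Spearman rho 0.888, values across regions of the same libraries that are given as a description. On the other arms they were 0.922 and 0.740. Replicate 1 was the higher at 47 of the 62 (75.8%), against 70.4% on the other arms. Across all 62, replicate 1 minus replicate 2 had a median of 0.22 log2 (SD 0.50), against 0.21 log2 (SD 0.54) on the other arms. The 141 matched regions below the IDR list had a Pearson r of 0.289, against 0.415 on the other arms. Pooled signals below the list were at most 128, a narrower range than at the IDR peaks. Over all 203 regions matched in both replicates, which are 53.4% of the 380, the median difference was 0.10 log2. Its direction turned in log2 rank (-0.06), it was 0.18 with matches within 50 bp, and 31.3% of the regions were matched at that distance.

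**Figure D4:**
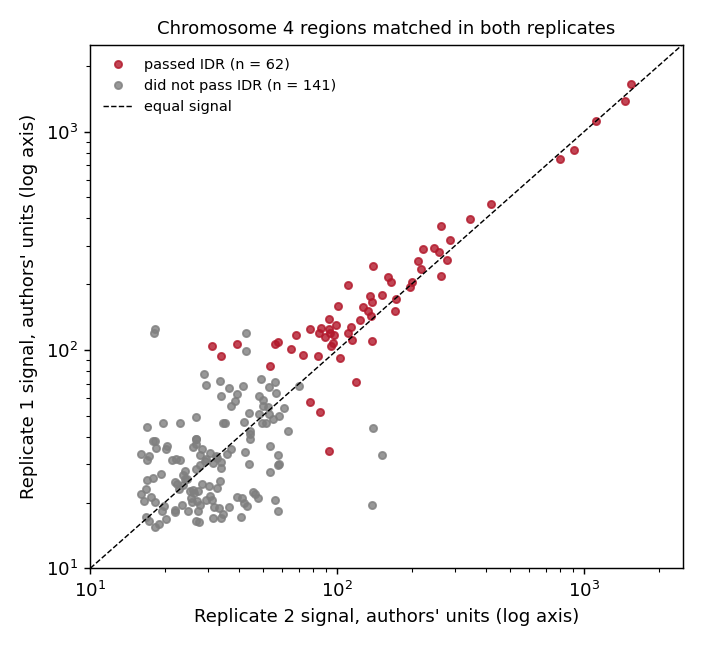
Signal in replicate 1 (vertical log axis) against replicate 2 (horizontal log axis), in the authors' units, for the chromosome 4 regions with a summit within 200 bp in both replicates. The 62 IDR peaks follow the line of equal signal up to 1651 in replicate 1, while the 141 other regions are scattered at low signal.

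Among the 62 matched IDR peaks, the largest differences between replicates were at weak ones. Below the IDR list the differences ran between -2.83 and 2.77 log2, and at some of these the matched replicate summit lay nearer to another pooled summit. The value of -2.83 set a replicate 1 summit 4 bp from the pooled summit at 571054 against a replicate 2 summit 188 bp from it. That replicate 2 summit is the one of 138 near ND-49 and Ephrin, where replicate 1 had 124, so -2.83 compares different summits. Both summits of pan, which encodes the TCF factor of Wnt signalling, were higher in replicate 1. One had 104 in replicate 1 and 31.2 in replicate 2 (1.73 log2), and the other 106 and 39.3 (1.43 log2). A summit shared by Cals and Arf4 had 93.8 in replicate 1 and 33.8 in replicate 2 (1.47 log2). The summit of CG46466 and Slip1 went the other way, with 34.5 and 93.0 (-1.43 log2). A weaker summit of ATPsynbeta than the one of 207, with a pooled signal of 155 and 30 bp upstream of a TSS, had a difference of 0.93.

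The lowest signals inside the IDR list on chromosome 4 were 131 at CG46466 and Slip1, 131 at Cals and Arf4, 135 at mav, and 139 and 140 at pan. The highest outside it were 128 and 119 at myo, 125 at Ank, 125 at Asator and 116 at mGluR. The list ends at a signal of 128 over the whole genome.

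Short motifs were counted within 50 bp of the summits, in windows of 101 bp, on both strands. GGAACG was present at 2 of the 63 IDR summits of chromosome 4 (3.17%, 0.875 to 10.9%), 1 of them the summit at Tdg and Pur-alpha shown above. It was present at 422 of 2823 on the other arms (14.9%, 13.7 to 16.3%). GGAACG was chosen for its frequency at the strongest peaks of these arms, so the contrast with chromosome 4 is partly fixed by that choice. In windows of the same length 400 bp away it was present in 3.17% on chromosome 4 and 2.25% on the other arms. Among pooled ranks 1 to 300 it was at 1 of 5 summits on chromosome 4 and at 151 of 295 on the other arms (51.2%). Ranks 301 to 1000 were the class where the density of chromosome 4 relative to the other arms was highest. There GGAACG was at 0 of 25 summits on chromosome 4 and at 138 of 675 on the other arms (20.4%). Of the promoter summits alone, 3.70% held it on chromosome 4, against 14.1% on the other arms.

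TATCGATA was present at 6 of 63 IDR summits on chromosome 4 (9.52%, 4.44 to 19.3%) and at 2.27% on the other arms (1.78 to 2.88%). It was in 0.794% of the flank windows on chromosome 4 and in 0.655% on the other arms. The 6 summits were those of Crk, of Hcf and PMCA, of lncRNA:CR46488, of ey and myo, of MED26 and the weaker one of Cadps. GAGAG, the core read by GAGA factor, was present at 9.52% of chromosome 4 IDR summits (flanks 5.56%) and 19.2% on the other arms (flanks 11.7%). GGTCACAC, the core of a promoter motif bound by the factor M1BP, was at 0 of 63, with a Wilson upper limit of 5.75%, and at 1.98% on the other arms. Over all pooled regions of any rank, GGAACG was in 1.84% of the windows on chromosome 4 and 4.36% on the other arms, and TATCGATA in 2.63% and 1.24%. Their flank windows held TATCGATA in 1.32% on chromosome 4 and 0.334% on the other arms, so that off the summits, too, it was more frequent on chromosome 4. These motifs hold different shares of G and C, and the median window around an IDR summit had 37.6% G and C on chromosome 4 and 44.6% on the other arms. The part of base composition in the motif shares was not tested.

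Transposable elements took a larger share of the weak regions. Of the 380 summits, 55 lay in an annotated element (14.5%, 11.3 to 18.4%), against 0.486% on the other arms. Such elements cover 24.8% of the bases of chromosome 4 and 5.74% of those of the other arms. INE-1 held 27 of the 55 summits, 1360 held 11 and Cr1a held 6. At IDR summits there were 2 of 63 (3.17%, 0.875 to 10.9%), both at the non-coding gene lncRNA:CR46488. The one in a 1360 copy had 110 in replicate 1 and 138 in replicate 2, and the one in an INE-1 copy had 71.2 and 119. Outside annotated elements, 18.8% of chromosome 4 regions passed IDR, against 9.55% on the other arms. Inside them, 2 of 55 passed on chromosome 4 (3.64%) and 6.25% on the other arms. Reads from repeated copies may have been placed or dropped by an aligner that the sources used here do not name, and this part was not tested.

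Below the IDR list, coding exons over 1 kb from a TSS held 44 of 317 summits on chromosome 4 (13.9%, 10.5 to 18.1%), against 4.54% on the other arms. Introns held 23.7% on chromosome 4 and 34.1% on the other arms. A single IDR summit of chromosome 4 lay in such an exon, that of CG33978, with 94.3 in replicate 1 and 72.8 in replicate 2.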

How the data were processed

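The authors deposited 4 region lists on dm6, per the labels: relaxed lists for replicate 1, replicate 2 and both pooled, and the peaks that passed IDR. Each list gives a signal value per region, a −log10 q-value and a summit offset in bp, all deposited by the authors. The −log10 q-value is capped at 3.95 at all chromosome 4 IDR peaks and was used only to describe. The aligner, peak caller and IDR cutoff were each not given in the sources used here. Depth is unknown, and intervals (Wilson, 95%) cover counting error only, with regions treated as independent. No columns of other samples were present (0), and 3 pooled regions on Y were left out.

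Signals were ranked within each list. A pooled summit was matched to the nearest replicate summit within 200 bp. Summits were set against Ensembl release 115 on BDGP6.54, which shares the dm6 coordinates, and sequence came from the Release 6 assembly. Protein-coding genes with at least 1 annotated TSS no more than 1 kb from an IDR summit were called bound. All positions are 1-based. Python 3.11.15, numpy 2.4.6, scipy 1.17.1 and matplotlib 3.10.9 were used, and matching, distances and motif counts were tested on simulated data.

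The members, gene lists and motifs were chosen with earlier results of these data known. Apart from 1 gene that is not reported here, genes named are those at the 20 highest regions, all bound genes, the members of the lists, the 5 regions on each side of the IDR limit, the 5 largest replicate differences and the 5 highest distal regions. The genes without any region, bt, lncRNA:CR46488 and the remaining distal summits were named after their values were seen. Arf102F and Thd1 of the lists were matched to their current symbols Arf4 and Tdg through the RefSeq gene table. Alternatives changed the TSS distance, match distance, replicate, list length, chromosome length and counting of intervals.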

Additional observations from a re-analysis of the deposited data

How the results depend on the processing

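No paired analysis was possible because there is 1 group. Of 46 alternative values for 10 results, 34 stayed within the main value's 95% interval (for the count of genes, within 1.5 times), 11 moved and 1 changed sign. IDR compares replicates, so it was not run with 1 replicate left out. The top regions of the other replicate, as many as the IDR peaks, were used in their place. The share of regions among these top regions was 16.5 to 16.8%, and their density ratio was 2.12 to 2.23. Their promoter share was 85.2 to 87.5%, GGAACG was at 3.12 to 3.28% of them, and they gave 52 to 55 genes bound. Their ratio per gene was 3.74 to 3.93. For the whole list of that replicate, the share of all regions was 1.23 to 1.27% and the promoter share 48.0 to 50.8%.

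The upper 1443 peaks of the IDR list held 44 of chromosome 4, which is 11.6% of its regions, a density ratio of 3.09 and a ratio per gene of 5.45. The share of all regions near a TSS was 36.3% at 500 bp, 25.3% at 200 bp and 44.7% with protein-coding TSSs, against 50.8%. The share of IDR summits was 73% at 200 bp. The count of 53 bound genes became 46 at 500 bp, 43 at 200 bp and 40 with the upper 1443 peaks. With 1 TSS per gene it was 46. These settings were not applied to the genes of the other arms, so how they move the contrast with those arms is not known. Chromosome 4 had 183 annotated TSSs for 118 genes of any kind, and the other arms had 23401 for 18046. The share of regions matched in both replicates was 42.4% at 100 bp, 31.3% at 50 bp and 62.4% by overlap of intervals. A shorter distance and a shorter list lower these shares and counts by construction. The median replicate difference was 0.18 log2 with matches within 50 bp, and -0.06 in log2 rank, replicate 2 rank over replicate 1 rank; the cause was not tested.

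With 63 peaks, the intervals of shares are wide, and small differences from the other arms were not detectable.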

Other observations

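Another 2 short sequences were chosen after the data had been seen, and their values are a description. TATCGA, the first 6 bases of TATCGATA, was within 50 bp of 15 of the 63 IDR summits of chromosome 4 (23.8%, Wilson interval 15 to 35.6%), against 8.36% on the other arms. Every window with TATCGATA also holds TATCGA, so these 15 include the 6 summits with TATCGATA and are not a separate observation. The windows 400 bp away held TATCGA in 7.14% of cases on chromosome 4 and in 4.23% on the other arms. At promoter summits alone it was at 27.8% on chromosome 4 (17.6 to 40.9%) and at 10.8% on the other arms (9.56 to 12.3%). GGAACA, which differs from GGAACG in its last base, was at 8 of 63 IDR summits on chromosome 4 (12.7%, 6.58 to 23.1%) and at 10.8% on the other arms. Its flank windows held it in 3.17% on chromosome 4 and in 3.81% on the other arms.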
